A study of Homo sapiens with 8 samples.

Results

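PARP9, DTX3L, PARP10, PARP12 and PARP14 were followed through the H3K27ac landscape of CFPAC1 clones with and without hIFNb, read here as human interferon beta. H3K27ac, an acetylated form of histone H3, marks active promoters and enhancers. A peak was taken as a region of these 5 genes when the authors' annotation placed a start site of one of them inside it or within 50 kb as its nearest upstream or downstream start site, or when it overlapped one of the genes in RefSeq GRCh38.p14. This gave 9 of the 31961 deposited peaks. Of these, 4 hold a start site of the genes, with PARP9 and DTX3L sharing a single peak, and 5 lie elsewhere.

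The study immunoprecipitated H3K27ac with the Abcam antibody ab4729 and sequenced it in clones of CFPAC1, an established line of human ductal cancer of the pancreas. All clones were grown out by dilution after infection with a plasmid that the labels spell lentiCRIPSv2. IRF1-guide clones 11 and 13 carry wt Cas9 and a guide RNA against IRF1, a transcription factor of the interferon response, and control clones 1 and 4 have no guide named. Each clone gave 1 library after 2 hours of hIFNb and 1 untreated library, so that the groups were IRF1-guide with hIFNb, IRF1-guide untreated, control with hIFNb and control untreated, with 2 libraries each. Each line is a single clone and the labels do not say whether the guide removed IRF1 protein, so a difference between IRF1-guide and control clones and a difference between single clones cannot be told apart beyond the spread of 2 clones a genotype.

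PARP enzymes move ADP-ribose from NAD onto proteins. PARP10, PARP12 and PARP14 add single ADP-ribose units, and PARP14 also carries macrodomains, folds that bind or remove ADP-ribose. PARP9 carries macrodomains and works as a partner of DTX3L, a ubiquitin ligase of the Deltex family, and its gene is read away from DTX3L out of a shared promoter. PARP12 holds zinc fingers that bind RNA. All 5 genes are known interferon-stimulated genes: type I interferon activates STAT factors, which join IRF9 on a DNA element of repeated GAAA letters in such promoters, and IRF1 binds a closely related element.

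Letters that match such an element stand close to the start sites of DTX3L, PARP14 and PARP12, whose peaks gained the mark, and these 3 promoters are shown. The PARP10 peak gained the mark too, but neither a sequence nor a search for the element is reported for PARP10. Windows of 220 bases, from 200 bases before the RefSeq start site to its first 20 bases, are printed 5′ to 3′ on the gene's strand from RefSeq GRCh38.p14, with capitals for the letters that match the GAAA repeat searched for, which is GAAA, any 2 letters and GAAA again, on either strand. They lie at chr3:122564138-122564357 on the plus strand (DTX3L), chr3:122680639-122680858 on the plus strand (PARP14) and chr7:140062932-140063151 on the minus strand (PARP12).

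DTX3L: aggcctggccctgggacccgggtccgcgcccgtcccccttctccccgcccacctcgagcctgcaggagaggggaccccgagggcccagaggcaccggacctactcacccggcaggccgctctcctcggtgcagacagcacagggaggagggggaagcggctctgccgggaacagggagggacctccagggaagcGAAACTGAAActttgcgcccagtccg
PARP14: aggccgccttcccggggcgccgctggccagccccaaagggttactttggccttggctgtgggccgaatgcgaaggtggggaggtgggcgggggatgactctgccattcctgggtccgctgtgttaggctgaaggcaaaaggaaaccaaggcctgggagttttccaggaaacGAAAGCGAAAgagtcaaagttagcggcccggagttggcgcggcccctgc
PARP12: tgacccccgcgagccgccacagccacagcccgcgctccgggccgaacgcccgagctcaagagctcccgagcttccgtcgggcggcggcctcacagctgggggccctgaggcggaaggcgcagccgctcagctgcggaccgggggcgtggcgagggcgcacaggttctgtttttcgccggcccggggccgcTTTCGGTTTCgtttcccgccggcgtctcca

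The DTX3L match, GAAACTGAAA, runs from base -6 to base 4 counted from the DTX3L start site, with no base 0. One of the 2 PARP9 windows contains the same letters at bases -41 to -32 from that PARP9 start site, on the strand opposite to PARP9. The PARP14 match, GAAAGCGAAA, spans bases -29 to -20. A match to TTCNNNGAA, the general form of the gamma-activated sequence, stands just before it at bases -40 to -32 and does not overlap it. The PARP12 match lies on the strand opposite to the gene, at bases -10 to -1, and therefore reads TTTCGGTTTC in the line above.

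Of all 35116 RefSeq promoter windows of 300 bases, 3.57% contained the GAAA repeat on either strand and 7.66% contained TTCNNNGAA. Among the 421 peaks that enclosed a whole window with the GAAA repeat, 106 (25.2%) were called higher with hIFNb. Among the 8077 peaks whose enclosed windows lacked it, 365 (4.52%) were called higher. For TTCNNNGAA the counts were 74 of 798 (9.27%) with it and 397 of 7700 (5.16%) without it. These matches describe letters and do not measure the binding of any factor.

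All 4 promoter peaks carried more H3K27ac with hIFNb, and PARP10 showed the largest log2 change of them. Called here means a Benjamini-Hochberg adjusted p under 0.05 in limma over all 31961 peaks. All 4 promoters were called higher over all clones, and none of the other 5 peaks was called. Over all peaks 6.55% were called higher and 2.58% lower, and among the 9903 peaks that hold a start site 6.09% were called higher. The median log2 change of the 9 peaks was 0.37, that of all peaks was -0.0001 and that of all peaks with a start site was 0.11. In bulk chromatin, more cells carrying the mark and more of the mark per cell cannot be told apart.

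**Figure D1:**
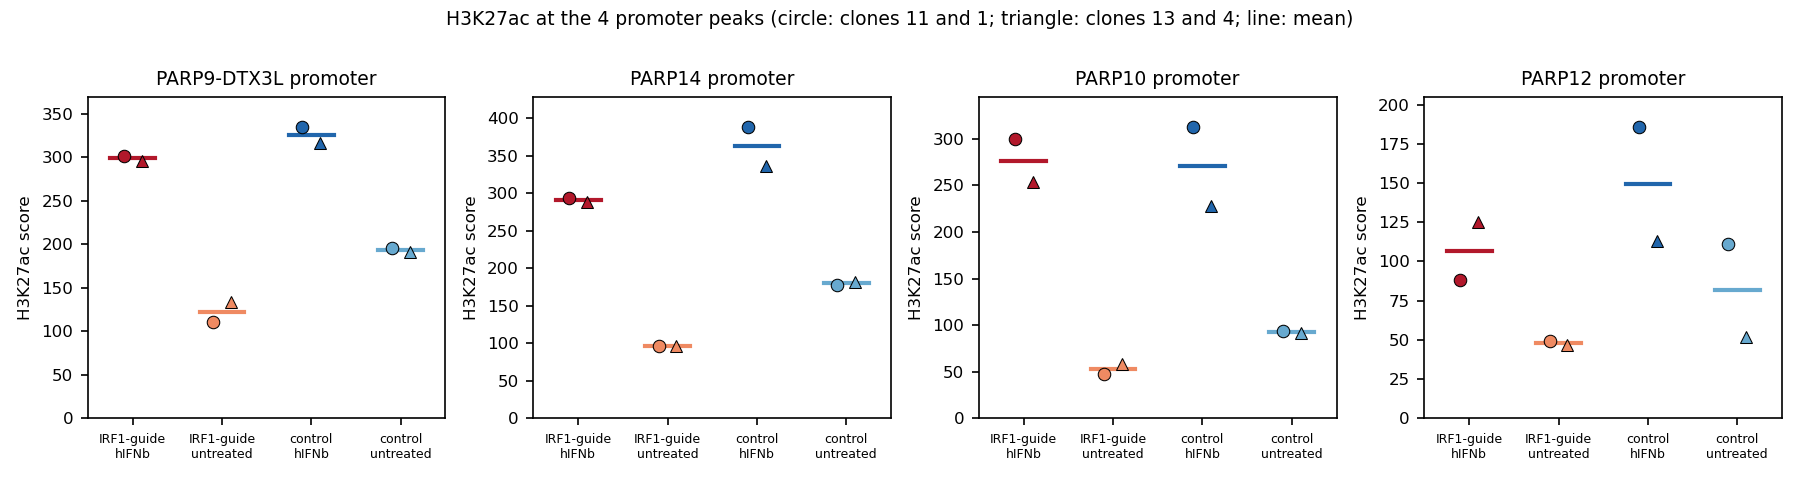
H3K27ac score (authors' normalised score per peak, linear axis from 0) in each of the 8 libraries at the 4 peaks that hold a start site of the 5 genes, by group; circles are clones 11 and 1, triangles clones 13 and 4, and lines the mean of 2 clones. At PARP9-DTX3L, PARP14 and PARP10 every hIFNb library lies above every untreated library, as at 7.22% of all peaks. At PARP12 the untreated library of control clone 1 (111) lies above the hIFNb library of IRF1-guide clone 11 (88).

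PARP9 and DTX3L, the macrodomain protein and its ubiquitin ligase partner, share the promoter peak at chr3:122560890-122567429, which is 6540 bp wide. RefSeq places PARP9 at chr3:122527924-122564784 on the minus strand and DTX3L at chr3:122564338-122575203 on the plus strand, so the 5′ ends of the 2 genes overlap inside the peak and its score cannot be divided between them. The score was 301 in clone 11 and 296 in clone 13 of the IRF1-guide clones with hIFNb, against 111 and 134 in the same clones untreated. In control clones 1 and 4 it was 335 and 316 with hIFNb, against 196 and 191 untreated. Every hIFNb library lay above every untreated one, as at 7.22% of all peaks. Both untreated IRF1-guide libraries lay below both untreated control libraries, as at 22.5% of all peaks.

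Over all clones, the PARP9-DTX3L peak rose by a log2 change of 1.02 ± 0.13 (SE, limma, adjusted p = 0.000950), and this call held with each library left out. In the IRF1-guide clones the mean score was 298.5 ± 3.5 with hIFNb, against 122.5 ± 16.3 untreated (SD, n = 2 clones each), a log2 change of 1.28 ± 0.18 (limma, adjusted p = 0.00729). In the control clones the mean was 325.5 ± 13.4 with hIFNb, against 193.5 ± 3.5 untreated, a log2 change of 0.75 ± 0.18 (limma, adjusted p = 0.0408). The call in the IRF1-guide clones was lost without the hIFNb library of clone 11 (limma, adjusted p = 0.0913), that of clone 13 (0.0641) or the untreated library of clone 11 (0.0568). The call in the control clones was lost when any library of the control clones was left out (limma, adjusted p = 0.201 and 0.129 without hIFNb clones 1 and 4, and 0.171 and 0.176 without untreated clones 1 and 4), and without the hIFNb library of IRF1-guide clone 11 (0.0638) or 13 (0.0635). It was also lost without the mean-variance trend (0.115).

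PARP14, the macrodomain-carrying transferase, lies further along chromosome 3 than PARP9, DTX3L and PARP15 and has its promoter peak at chr3:122676570-122684754 (8185 bp). The score was 294 and 288 in IRF1-guide clones 11 and 13 with hIFNb, against 96 and 97 in the same clones untreated. It was 389 and 337 in control clones 1 and 4 with hIFNb, against 178 and 182 untreated. Again every hIFNb library lay above every untreated one (7.22% of all peaks). Both untreated IRF1-guide libraries again lay below both untreated control libraries (22.5% of all peaks).

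Over all clones the PARP14 promoter rose by a log2 change of 1.29 ± 0.12 (SE, limma, adjusted p = 0.000254), a call that held with each library left out. The log2 change was 1.58 ± 0.17 in the IRF1-guide clones (limma, adjusted p = 0.00235) and 1.00 ± 0.17 in the control clones (limma, adjusted p = 0.0111). The call in the control clones was lost without the hIFNb library of control clone 1 (limma, adjusted p = 0.112), its untreated library (0.0764) or the untreated library of control clone 4 (0.0665).

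PARP10, a mono-ADP-ribosyltransferase, has its promoter peak on chromosome 8 at chr8:143983116-143991141 (8026 bp), inside the RefSeq span of the gene at chr8:143977158-144012764. The score was 300 and 253 in IRF1-guide clones 11 and 13 with hIFNb, against 48 and 58 untreated. In control clones 1 and 4 it was 313 and 228 with hIFNb, against 94 and 92 untreated. With hIFNb the 2 genotypes overlapped, while untreated the IRF1-guide clones lay below the control clones, as at 22.5% of all peaks.

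The PARP10 promoter rose over all clones by a log2 change of 1.94 ± 0.16 (SE, limma, adjusted p = 0.000126), by 2.36 ± 0.22 in the IRF1-guide clones (limma, adjusted p = 0.00115) and by 1.51 ± 0.22 in the control clones (limma, adjusted p = 0.00529). Ordered by log2 change over all clones it ranked 425 of 31961 peaks and 70 among the peaks with a start site, against ranks 1223 and 170 for PARP14. The call in the control clones was lost without the hIFNb library of control clone 1 (limma, adjusted p = 0.0733). The call over all clones held with each library left out.

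PARP12, the zinc-finger member that binds RNA, has its promoter peak at chr7:140058586-140064186 (5601 bp), at the 5′ end of the gene (chr7:140023749-140062951, minus strand). The score was 88 and 125 in IRF1-guide clones 11 and 13 with hIFNb, against 49 and 47 untreated. It was 186 and 113 in control clones 1 and 4 with hIFNb, against 111 and 52 untreated. Control clone 1 was high in both states, so the hIFNb and untreated libraries overlapped although hIFNb was higher in 4 of 4 clones.

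The PARP12 promoter rose over all clones by a log2 change of 1.02 ± 0.26 (SE, limma, adjusted p = 0.0368), but this call was less stable than those of the other promoters. It was lost without the hIFNb library of IRF1-guide clone 11 (limma, adjusted p = 0.0607) or 13 (0.106), the untreated library of IRF1-guide clone 11 (0.0875) or 13 (0.0868), the hIFNb library of control clone 1 (0.128) or the untreated library of control clone 4 (0.103), and without the mean-variance trend (0.0850). Within the genotypes the log2 change was 1.11 ± 0.37 in the IRF1-guide clones (limma, adjusted p = 0.241) and 0.92 ± 0.37 in the control clones (adjusted p = 0.197). With 1 library left out, the value in the control clones ran between 0.38, without the untreated library of clone 4, and 1.46, without that of clone 1. In a fit that sets each treated library against the untreated one of its own clone (the clone as a block), both passed the threshold (limma, adjusted p = 0.000122 and 0.000531).

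Within genotypes, 3 of the 9 peaks were called higher in the IRF1-guide clones and 3 in the control clones, the PARP9-DTX3L, PARP14 and PARP10 promoters in both cases, and none was called lower. Over all peaks 1.2% were called higher in the IRF1-guide clones and 4.07% in the control clones, and 0.025% and 0.676% lower. With the clone as a block the 4 promoters were called in both genotypes, at a background of 7.44% called higher in the IRF1-guide clones and 13.4% in the control clones.

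**Figure D2:**
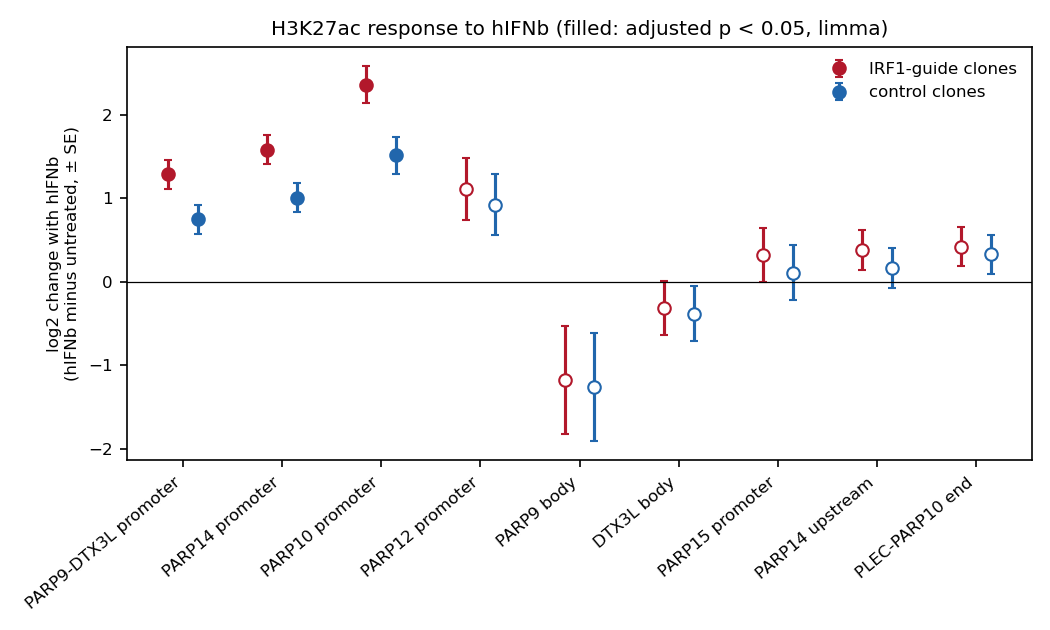
Change in H3K27ac with hIFNb (hIFNb minus untreated, log2 of score + 1, ± SE from limma) at the 9 peaks in IRF1-guide clones (red) and control clones (blue); filled points passed an adjusted p under 0.05. The 3 filled pairs are the PARP9-DTX3L, PARP14 and PARP10 promoters, with 1.28, 1.58 and 2.36 in the IRF1-guide clones against 0.75, 1.00 and 1.51 in the control clones.

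The response was positive in each of the 4 clones at each of the 4 promoters. The share of all peaks with the same direction in 4 of 4 clones was not computed. At PARP10 the log2 change was 2.62 and 2.11 in IRF1-guide clones 11 and 13, against 1.72 and 1.30 in control clones 1 and 4. At PARP9-DTX3L it was 1.43 and 1.14 in the IRF1-guide clones, against 0.77 and 0.72 in the control clones. The PARP10 response exceeded that of PARP14 by 0.64 ± 0.26 on the log2 scale (SD over 4 clones) and that of PARP9-DTX3L by 0.92 ± 0.25, in 4 of 4 clones each. It exceeded that of PARP12 by 0.92 ± 0.66, again in 4 of 4 clones. The PARP14 response exceeded that of PARP9-DTX3L by 0.28 ± 0.13 in 4 of 4 clones and that of PARP12 by 0.28 ± 0.41 in 3 of 4.

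PARP9-DTX3L and PARP12 differed by -0.0016 ± 0.44, with PARP9-DTX3L higher in 2 of 4 clones. Over these 6 pairs, the exact two-sided sign-flip test gave p = 0.125, the smallest it can give with 4 clones, for each pair with 4 of 4 clones in 1 direction (adjusted over 6 pairs, 0.1875). This test could therefore not place any pair under 0.05.

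Levels per kb of peak gave another order than the changes. With hIFNb the score per kb averaged 45.6 at PARP9-DTX3L, 35.6 at PARP14, 34.5 at PARP10 and 19.0 at PARP12 in the IRF1-guide clones. Untreated, the same clones averaged 18.7, 11.8, 6.6 and 8.6 in that order of promoters. In the control clones the score per kb was 49.8, 44.3, 33.7 and 26.7 with hIFNb, against 29.6, 22.0, 11.6 and 14.6 untreated.

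PARP9-DTX3L stood highest in each of the 8 libraries. PARP14 and PARP10 overlapped in the IRF1-guide clones with hIFNb (35.9 and 35.2 per kb at PARP14, 37.4 and 31.5 at PARP10), so their order there is within the spread of the clones. PARP10 and PARP12 overlapped in the control clones in both states. Averaged over the 8 libraries, the levels were 35.9 per kb at PARP9-DTX3L, 28.4 at PARP14, 21.6 at PARP10 and 17.2 at PARP12, against a median of 13.7 over all peaks.

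Set by genotype, the untreated levels of all 4 promoters were lower in both IRF1-guide clones than in both control clones, an ordering that 22.5% of all peaks also showed. The log2 difference, IRF1-guide minus control, was -0.66 ± 0.18 at PARP9-DTX3L (SE, limma, adjusted p = 0.195) and -0.89 ± 0.17 at PARP14 (adjusted p = 0.103). It was -0.81 ± 0.22 at PARP10 (limma, adjusted p = 0.211) and -0.65 ± 0.37 at PARP12 (adjusted p = 0.521). The PARP12 difference was -0.11 without the untreated library of control clone 1 and -1.19 without that of control clone 4. No peak in the genome was called in the untreated comparison in limma (0.0%), while 3851 peaks (12.0%) had an unadjusted p under 0.05, among them 3 of the 9 (PARP9-DTX3L, PARP14 and PARP10).

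An untreated difference at PARP14 passed the threshold in a fit with the ending of the deposited column name as a covariate, chosen after seeing the data (limma, adjusted p = 0.0280). That fit pairs clones 1 and 11 (R1) against clones 4 and 13 (R2) and called 0.476% of all peaks higher and 0.785% lower. The 2 untreated control columns used every whole number from 1 to 100, while the other 6 columns skipped 10 to 30 of them. The part of this difference between the columns in the genotype comparison was not tested.

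With hIFNb the fitted log2 differences between the genotypes were smaller in size at each of the 4 promoters than untreated, but this change was called at none of them. The log2 difference, IRF1-guide minus control, was -0.12 ± 0.18 at PARP9-DTX3L (SE, limma, adjusted p = 0.785), -0.31 ± 0.17 at PARP14 (adjusted p = 0.412), 0.04 ± 0.22 at PARP10 (adjusted p = 0.949) and -0.46 ± 0.37 at PARP12 (adjusted p = 0.587). With 1 library left out the PARP12 value ran between -0.82, without the hIFNb library of control clone 4, and -0.11, without that of control clone 1. None of the 9 peaks was called, in a comparison where 0.238% of all peaks were called higher and 2.19% lower, and 16.3% had an unadjusted p under 0.05. Both IRF1-guide clones lay below both control clones at the PARP9-DTX3L and PARP14 promoters, as at 24.2% of all peaks. On clone means over both treatments the largest difference of the 4 promoters was -0.60 ± 0.18 at PARP14 (limma, adjusted p = 0.175), and none of the 9 was called (0.0594% of all peaks higher, 0.457% lower, and 14.7% at an unadjusted p under 0.05).

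The difference between the genotypes' responses to hIFNb, IRF1-guide minus control, was positive at 9 of 9 peaks but called at none. Its median over all peaks was 0.0008, and the share of all peaks with a positive difference was not computed. Most of these 9 peaks lie in the same gene cluster. The difference was below its SE at the bodies of PARP9 (0.09 ± 0.92) and DTX3L (0.07 ± 0.46). It was also below its SE at PLEC-PARP10 (0.09 ± 0.33), the PARP15 promoter (0.21 ± 0.46) and upstream of PARP14 (0.22 ± 0.34). It was 0.85 ± 0.32 at PARP10 (SE, limma, unadjusted p = 0.0223, adjusted p = 1.00), 0.58 ± 0.25 at PARP14 (unadjusted p = 0.0404) and 0.54 ± 0.25 at PARP9-DTX3L (unadjusted p = 0.0572). At PARP12 it was 0.19 ± 0.52, and its sign turned with some libraries left out (-0.35 to 0.73). No peak in the genome was called in this test (0.0%), with 1258 (3.94%) at an unadjusted p under 0.05. With the clone as a block, 0.106% of all peaks were called higher and 0.657% lower, and PARP10 reached an adjusted p of 0.0740 (limma). This difference shares the untreated libraries with the untreated comparison, so the lower untreated scores of the IRF1-guide clones enter both.

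In raw scores the gain with hIFNb at PARP10 was 252 and 195 in IRF1-guide clones 11 and 13, against 219 and 136 in control clones 1 and 4. At PARP14 it was 198 and 191 in the IRF1-guide clones, against 211 and 155 in the control clones. At PARP9-DTX3L it was 190 and 162 in the IRF1-guide clones, against 139 and 125 in the control clones. At PARP12 it was 39 and 78 in the IRF1-guide clones, against 75 and 61 in the control clones. The genotypes overlapped in this gain at PARP10, PARP14 and PARP12. At PARP9-DTX3L both IRF1-guide clones gained more than both control clones, as at 19.8% of all peaks, and 43.3% of all peaks showed no overlap in either direction.

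None of the 5 other peaks passed the test over all clones. In the body of PARP9, a 1057 bp peak at chr3:122533687-122534743 scored 9 and 6 in IRF1-guide clones 11 and 13 with hIFNb, against 23 and 14 untreated. In control clones 1 and 4 it scored 18 and 3 with hIFNb, against 19 and 21 untreated. It was lower with hIFNb in 4 of 4 clones, opposite to the shared promoter, but by only 1 in control clone 1. Its mean score over the 8 libraries was 14.1, against a median of 47.4 over all peaks. The log2 change was -1.22 ± 0.46 (SE, limma, adjusted p = 0.124). It passed the threshold with the clone as a block (adjusted p = 0.00704, at a background of 15.9% called lower) and without the hIFNb library of control clone 1 (-1.79, adjusted p = 0.0255). Without the hIFNb library of control clone 4, which held the lowest score, the change was -0.66 and did not pass the threshold.

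At the downstream end of DTX3L (chr3:122569741-122574625) the score was 49 and 52 in the IRF1-guide clones with hIFNb, against 55 and 72 untreated. It was 45 and 81 in the control clones with hIFNb, against 65 and 96 untreated, so that hIFNb was lower in 4 of 4 clones while the groups overlapped. The log2 change was -0.35 ± 0.23 (SE, limma, adjusted p = 0.374).

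Between DTX3L and PARP14 lies PARP15, another macrodomain PARP. The peak named here as its promoter, at chr3:122576349-122578757, holds the PARP15 start site of the authors' annotation. That peak lies 11.565 kb from the PARP9 start site that the authors' annotation uses. Its score was 44 and 44 in the IRF1-guide clones with hIFNb, against 30 and 41 untreated. It was 29 and 45 in the control clones with hIFNb, against 40 and 28 untreated. The groups overlapped, and the log2 change was 0.21 ± 0.23 (SE, limma, adjusted p = 0.602).

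A broad peak 6.873 kb upstream of the PARP14 start site, at chr3:122663131-122673966 (10836 bp), scored 139 and 128 in the IRF1-guide clones with hIFNb, against 104 and 100 untreated. In the control clones it scored 116 and 172 with hIFNb, against 111 and 143 untreated. It was higher with hIFNb in 4 of 4 clones, but the log2 change of 0.27 ± 0.17 did not pass the threshold (SE, limma, adjusted p = 0.343).

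The last peak, at chr8:143968835-143977460, overlaps the 3′ end of PARP10 and holds a start site of PLEC, which encodes the cytolinker plectin. It scored 129 and 137 in the IRF1-guide clones with hIFNb, against 117 and 84 untreated, and 157 and 124 in the control clones with hIFNb, against 121 and 102 untreated. Every hIFNb library was above every untreated one, as at the PARP9-DTX3L, PARP14 and PARP10 promoters and at 7.22% of all peaks. The log2 change was 0.37 ± 0.17 (SE, limma, adjusted p = 0.191), which passed the threshold with the clone as a block (adjusted p = 0.0137, at a background of 16.6% called higher).

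**Figure D3:**
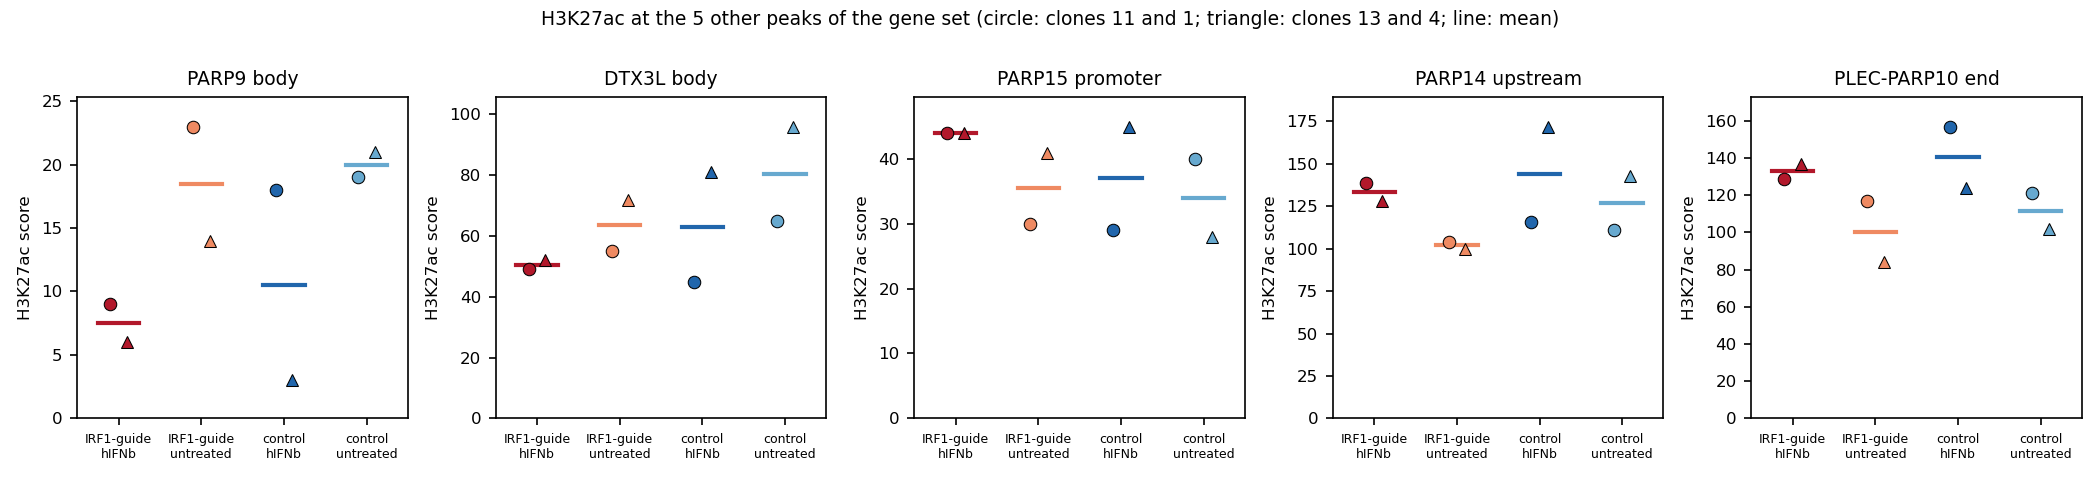
H3K27ac score (linear axis from 0) in the 8 libraries at the 5 peaks that hold no start site of the 5 genes, by group; circles are clones 11 and 1, triangles clones 13 and 4, and lines the mean of 2 clones. Only at the PLEC-PARP10 peak does every hIFNb library lie above every untreated library, and at the PARP9 body peak 3 of 4 hIFNb libraries (9, 6 and 3) lie below all untreated libraries.

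**Figure D4:**
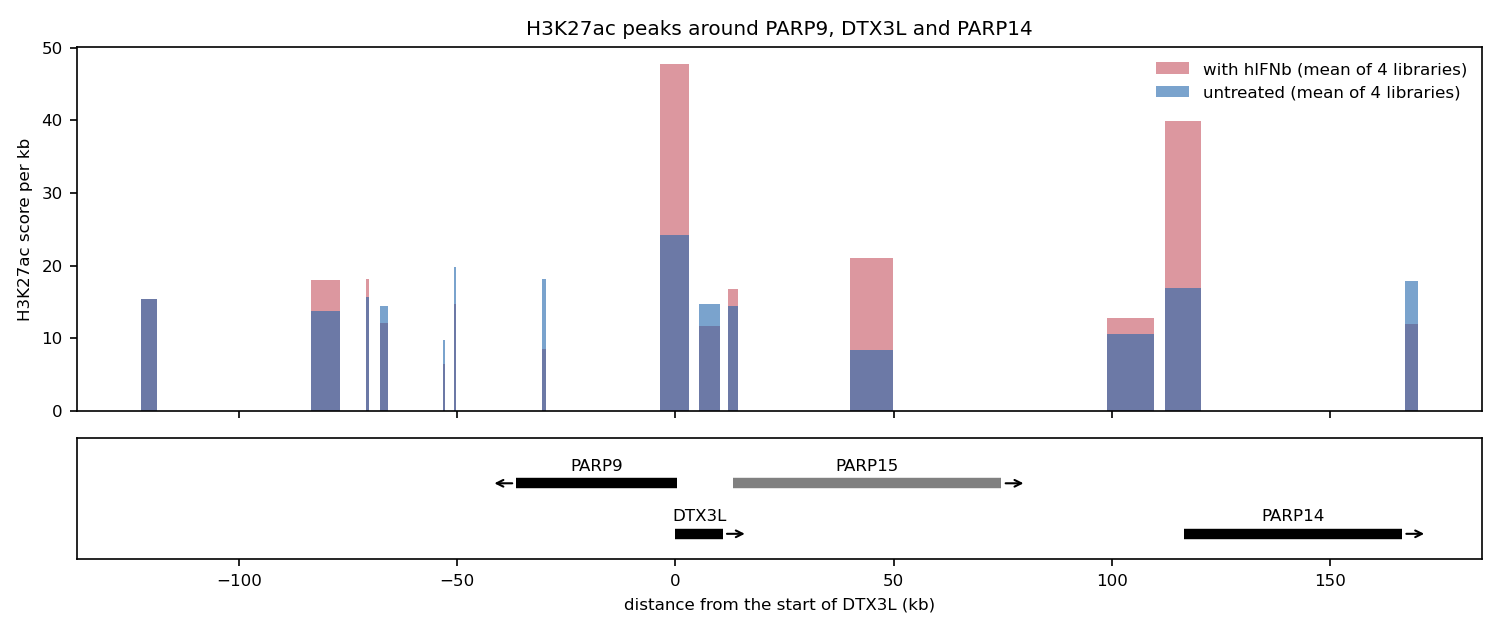
H3K27ac score per kb of peak along the chromosome 3 cluster, against distance in kb from the start of DTX3L, as the mean of the 4 hIFNb libraries (red) and the 4 untreated libraries (blue), drawn over each other from 0; the lower panel shows the RefSeq spans of the genes, with arrows for the strand. The PARP9-DTX3L and PARP14 promoters and a peak in the body of PARP15 stand higher with hIFNb, while the PARP9 body and DTX3L body peaks stand lower.

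Of the other 13 PARP family genes, 7 had a peak by the same distances, with 12 peaks in all, 2 of which are the DTX3L and PARP15 peaks described above. Over all clones 4 of the 12 were called higher and 1 lower, with a median log2 change of 0.32. The promoter peaks of PARP1 (DNA damage), PARP4, TNKS (a tankyrase) and PARP8 were not called, and that of ZC3HAV1, which encodes the zinc-finger antiviral protein, was. The ZC3HAV1 promoter scored 301 and 401 in the IRF1-guide clones with hIFNb, against 141 and 233 untreated, and 584 and 361 in the control clones with hIFNb, against 225 and 178 untreated. It rose by 1.06 ± 0.21 (SE, limma, adjusted p = 0.0115), and the call held with each library left out but not without the mean-variance trend (limma, adjusted p = 0.0505).

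The peak in the body of PARP15, at chr3:122604421-122614145, lies in the same cluster between DTX3L and PARP14. RefSeq places a further PARP15 promoter window at chr3:122615365-122615664, just past the end of this peak. Whether the peak belongs to that start site was not tested. It scored 154 and 126 in IRF1-guide clones 11 and 13 with hIFNb, against 64 and 74 untreated. In control clones 1 and 4 it scored 248 and 291 with hIFNb, against 99 and 90 untreated. Over all clones it rose by 1.25 ± 0.15 (SE, limma, adjusted p = 0.000797), a call that held with each library left out.

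With hIFNb the IRF1-guide clones had less H3K27ac than the control clones at this PARP15 body peak, by a log2 difference of -0.94 ± 0.21 (SE, limma, adjusted p = 0.0478). With any 1 of the 8 libraries removed that call was lost (limma, adjusted p = 0.0536 to 0.298), and under 6 other settings it was lost as well (0.0504 to 0.0987). In both of these comparisons it was the only called peak among 13 further peaks within 100 kb of the 5 genes. The remaining called peaks of the family list, a PARP8 and a TIPARP peak (higher) and a second ZC3HAV1 peak (lower), lie 43.4, 8.25 and 13.6 kb from the start sites. They lost their calls when any of 5, 7 and 5 of the 8 libraries was left out (limma, highest adjusted p = 0.0764, 0.145 and 0.0968). The PARP8 peak was also called lower in the IRF1-guide than in the control clones with hIFNb, by -1.81 ± 0.32 (SE, limma, adjusted p = 0.0189), a call lost without any 1 of the 4 hIFNb libraries (highest adjusted p = 0.160).

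Genes that remove or read ADP-ribose had 8 peaks for 6 of 11 genes, of which 2 were called higher and none lower, with a median log2 change of 0.060. These were the promoters of ADPRS, an ADP-ribose hydrolase that acts on serine (1.17 ± 0.23, limma, adjusted p = 0.0124), and ADPRH, which acts on arginine (1.25 ± 0.24, adjusted p = 0.0106), and both calls held with each library left out. The 4 peaks of the other Deltex ligases gave no call and a median of 0.13. Of 9 peaks at genes of NAD supply and use 2 were called higher, with a median of 0.22. Both lay at CD38, an enzyme that consumes NAD, and their calls were lost when any of 6 and any of 3 libraries was left out. The CD38 promoter rose by 1.09 ± 0.22 in the control clones (SE, limma, adjusted p = 0.0213) and by 0.13 ± 0.22 in the IRF1-guide clones (adjusted p = 0.840). The difference between these responses was not called. With hIFNb this promoter was called lower in the IRF1-guide than in the control clones, by -1.40 ± 0.22 (limma, adjusted p = 0.0130). That call was lost without the hIFNb library of IRF1-guide clone 11 or of either control clone.

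The type I interferon signalling genes that act upstream of the PARP genes had 12 peaks for 9 of 9 genes. Of these 7 were called higher and none lower, with a median log2 change of 0.83. STAT2 rose by 1.78 ± 0.16 (SE, limma, adjusted p = 0.000212) and IRF9 by 1.34 ± 0.16 at its promoter (adjusted p = 0.000695). IRF7 rose by 1.79 ± 0.21 (limma, adjusted p = 0.000668) and the receptor-associated kinase gene JAK1 by 0.95 ± 0.17 (adjusted p = 0.00650). These 4 calls held with each library left out, whereas that of IRF1 (0.71 ± 0.15, adjusted p = 0.0165) was lost without the hIFNb library of IRF1-guide clone 11 (0.0635), the untreated library of IRF1-guide clone 13 (0.0560) or the hIFNb library of control clone 1 (0.0661), and without the mean-variance trend (0.0876). H3K27ac at IRF1 does not measure whether the guide cut the gene.

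**Figure D5:**
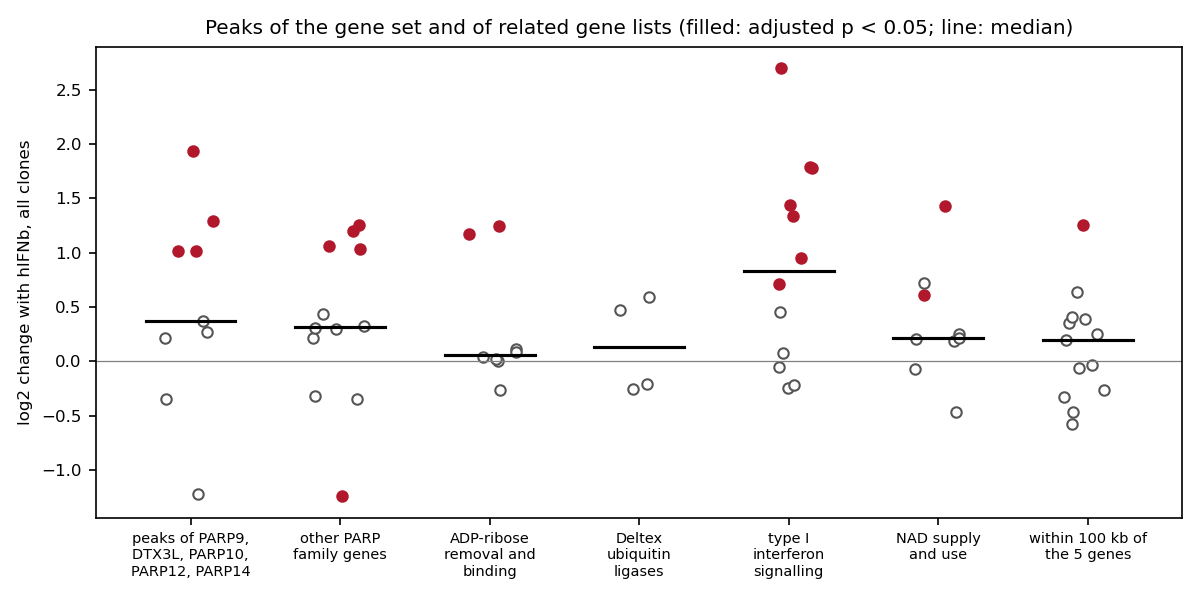
Change in H3K27ac with hIFNb over all clones (log2 of score + 1, hIFNb minus untreated) at each peak of the 5 genes and of the related gene lists, with filled points for an adjusted p under 0.05 in limma and a line for the median. The medians run between 0.060 for ADP-ribose removal and binding and 0.83 for type I interferon signalling, with 0.37 for the 9 peaks. The 9 peaks were taken by a wider rule than the peaks of the gene lists.

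Among 9423 peaks that hold a start site and have a mean score of at least 20, the profiles most like each promoter over the 8 libraries were ranked by the root mean square difference of centred log2 scores, a description with no test, since all the libraries share the same treatment contrast. Nearest to PARP9-DTX3L was B2M, the light chain of MHC class I (0.0690, Pearson r = 0.994), followed by SLFN12 (0.118). Nearest to PARP14 was TAP2, a subunit of the peptide transporter for MHC class I (0.0721, r = 0.995), then CDK18 (0.0986) and GRN (0.117). Nearest to PARP10 was TRIM5, a retroviral restriction factor (0.123, r = 0.993), then DDX58, which encodes the RNA sensor RIG-I (0.166), and LOC100310756 (0.191).

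PARP12 had no near neighbour of that kind. Its closest were FLT3LG (0.257, r = 0.937), GIMAP2 (0.274) and TRIM56 (0.278). Among the 4 promoters themselves PARP9-DTX3L and PARP14 were the most alike (0.189, r = 0.990), and PARP10 and PARP12 the least (0.601, r = 0.824).

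The scores of a library added up to between 3277561 and 3460390, and the read depth behind them is not given in the sources used here. Marker genes were given peaks by the rule of the related lists, which links each peak to a single gene. A marker whose start site lies in a peak named for a neighbour therefore counted as having no start-site peak. Of 8 epithelial marker genes 6 had a linked peak, and KRT7 and KRT19 had none linked. The peaks named for the start sites of EPCAM and KRT8 had scores that summed to 480 to 655 per library. Of 13 markers of other cell types 6 had a linked peak, with the start sites of COL1A1 and PECAM1 at 237 to 380 in sum. PTPRC, CDH5, COL1A2, CPA1, INS and PRSS1 were among those with none linked.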

How the data were processed

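H3K27ac was measured in 8 libraries of 4 CFPAC1 clones. Per the submitters' processing notes, Bowtie2 was the aligner and GRCh38 (hg38) the build; peak caller, read counter and normalisation were not given in the sources used here. Each peak has 1 deposited score per library, a normalised value given as a whole number, together with peak positions and neighbouring start sites. No depth or counting interval can be given for such values.

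Scores were analysed as log2(score + 1), so changes of low peaks are understated. A group-means model was fitted in limma 3.58.1 (R 4.3.3) and moderated by empirical Bayes with a trend of variance on mean; p-values were adjusted over all 31961 peaks by Benjamini-Hochberg. No peak was removed by the filter, a score above 0 in 2 or more libraries. Genotypes over both treatments were compared on clone means. There was 1 library per clone and treatment. In the main fit, p-values measure the spread between the 2 clones of each group, pooled over 8 libraries taken as independent. With the clone as a block, they measure how far the responses of clones of the same genotype differ. Only on clone means do they measure the spread between 4 clones.

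The labels give the treated and untreated library of a clone the same number, and their deviations from the group means correlated at 0.392 (IRF1-guide) and 0.437 (control), so a fit with the clone as a block was run as an alternative. Other alternatives were the pseudocount (0.5 and 5), a minimum mean score of 20, scaling to equal totals or trimmed means, no trend, each library left out, other distance limits and the column ending as a covariate. Sequences and gene positions came from RefSeq GRCh38.p14; all 5 genes matched by symbol, and promoter windows run from 250 bases before to 50 after a start site. Genes were named by these rules: all peaks of the 5 genes, called peaks of the related lists, and the 3 nearest profiles per promoter; a few of these are not reported here. The genes and lists were chosen with earlier results of these data known. Only the hIFNb response over all clones in the group-means model was tested on simulated scores, drawn independently for each library. The other comparisons and fits were not simulated.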

Additional observations from a re-analysis of the deposited data

How the results depend on the processing

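Over all peaks, 2918 were called in the hIFNb response of all clones, 391 in the IRF1-guide clones and 1516 in the control clones. With the clone as a block these counts were 10363, 4502 and 7867, and with the column ending as a covariate, chosen after seeing the data, 5181, 767 and 2992. Leaving out each library gave 1426 to 2111, 44 to 339 and 206 to 1489, with 0 to 3 of the 9 peaks called in the control clones. The genotype difference in the response gave 0 calls in limma, 1258 peaks at an unadjusted p under 0.05, and 244 calls with the block. The untreated genotype comparison gave 0 calls, 6 without the trend, 68 with clone as a random effect and 403 with the column ending, 1 of them the PARP14 promoter; leaving out libraries gave 0 to 1. With hIFNb, 776 genotype calls became 1207 with a pseudocount of 5, 1904 with the column ending and 0 to 851 with a library left out. Clone means gave 165 calls, 453 with a pseudocount of 5, 0 with a mean score of at least 20, 248 with trimmed-mean scaling, 2 without the trend and 0 with any clone left out. Taking only peaks that hold a start site of the 5 genes left 4 of the 9. The block changed the calls at PARP12 within genotypes, at the PARP9 body and at the PLEC-PARP10 peak, and no other call at the 9 peaks.

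Values that changed sign were all uncalled, each with a library left out: the control response at the DTX3L body (-0.80 to 0.035), the PARP15 promoter (-0.20 to 0.42) and the peak upstream of PARP14 (-0.12 to 0.45), the genotype difference in response at PARP12 (-0.35 to 0.73) and the genotype difference with hIFNb at PARP10 (-0.18 to 0.27). The hIFNb responses were recomputed at all 9 peaks and the genotype comparisons at the 4 promoters. Of these values 632 kept their direction and side of the threshold, 21 lost it, 6 passed it and 10 changed sign; the causes were not tested.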
